A study of Mus musculus with 12 samples.

Results

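Caveolin-1 (Cav1), caveolin-2 (Cav2), flotillin-1 (Flot1), flotillin-2 (Flot2) and Gnas were followed through the hippocampus and cortex of aged mice given amitriptyline (AMI), a tricyclic antidepressant. Members were all array features (50-base probes) that carried one of these 5 gene symbols, 14 of the 25697 probes and 5 of the 18097 gene symbols on the array. The genes were chosen by values of these same arrays, since Cav1 and Flot2 are among the transcripts that the study lists as changed by AMI in the hippocampus. The hippocampal difference between AMI and vehicle is therefore given as a description without a test. The cortical arrays and the difference between tissues are separate from that contrast and were tested, though how Cav2, Flot1 and Gnas were chosen is not given.

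The mice were male 3xTgAD animals, 18 months of age at tissue collection, which carry human APP and tau transgenes under the neuronal Thy1 promoter together with a mutant presenilin 1 knock-in. AMI-treated mice received 100 µg of AMI per g of body weight in their drinking water for 4 months, starting at 14 months, and vehicle-treated mice received plain water. All mice carried the transgenes, and no wild-type mice are part of the comparison. The study's methods report injections of bromodeoxyuridine, a label of dividing cells, in both groups. Its results name bromodeoxyuridine or a vehicle control, and the labels do not say which mice received it. Each of the 4 groups (hippocampus vehicle, hippocampus AMI, cortex vehicle, cortex AMI) had 3 arrays, 12 in all. The labels do not link samples to individual mice, so that p-values measure the spread between these samples only.

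Between 49.0% and 51.7% of all probes were detected per array (detection p of 0.05 or less), and the spread of log2 signals over probes (SD) was 1.51 to 1.85 on hippocampal and 1.42 to 1.68 on cortical arrays. The labelled tissues were checked against marker genes. Of the hippocampal markers, 4 of 5 tested were higher in the hippocampus and 1 was lower, and of the cortical markers 6 of 7 were lower there and 1 was higher (limma adjusted p under 0.05). At that threshold 43.1% of all probes tested differed between the tissues. Striatal markers were lower in the hippocampus for 4 of 4 genes (median log2 difference -1.78). Among the cortical arrays the mean level of these striatal markers was 1.77 to 1.98 after AMI and 2.23 to 2.34 after vehicle, without overlap. The part of these differences in the results for the members was not tested. In tissue RNA, fewer cells of a type and less RNA per cell cannot be told apart.

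Lipid rafts are patches of the plasma membrane rich in cholesterol and sphingolipids. Caveolins are hairpin proteins that coat caveolae, the flask-shaped rafts, and Cav2 needs Cav1 to leave the Golgi. In the brain caveolae are best known from the endothelium of blood vessels. Flotillins form mixed oligomers at flat rafts and are abundant in neurons. Gnas encodes the stimulatory G protein alpha subunit (Gs alpha), which activates adenylyl cyclase and is found in part in rafts. Tricyclic antidepressants have been studied for moving Gs alpha out of rafts, which is a protein event that arrays of RNA do not measure. Gnas is an imprinted locus with several first exons, among them those of the neuroendocrine protein Nesp55, the large form XL alpha s and Gs alpha, all joined to shared downstream exons.

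Each probe reads a different piece of its gene, and the sequences below are shown because probes of 1 gene gave different results. Positions are those of the array annotation in the deposited tables, which name no genome build, and the tables do not mark coding and untranslated parts. All probes with a position lie on the plus strand. Cav2 and Cav1 are neighbours on chromosome 6. The Cav2 probes lie at 17231898 to 17231947 (ILMN_2639018, from base 174 of the transcript) and at 17238681 to 17238730 (ILMN_2689037, from base 2143), and the Cav1 probe at 17291157 to 17291206 (ILMN_2632665, from base 2320). ILMN_2689037 is 20.0% G and C, and only 0.358% of the array's probes have as little. Whole probes are printed where they lie near the start of the transcript, and the first 30 bases otherwise.
Cav1 ILMN_2632665, first 30 bases: gtgttccaagacatgtctgttctccctaga
Cav2 ILMN_2639018, whole: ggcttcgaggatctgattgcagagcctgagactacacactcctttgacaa
Cav2 ILMN_2689037, first 30 bases: tcaaaactttaacaataaaatatcagttta

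Flot2 had 4 probes. ILMN_3152380 (chromosome 11, 77873851 to 77873900, from base 2526) and ILMN_1227357 (77873874 to 77873923, from base 2640) overlap by 27 bases, shown in capitals as the end of the former and the start of the latter. They were designed on different transcript records of Flot2, and the array annotation classes ILMN_3152380 as a probe to all transcripts of the gene. The other Flot2 probes start at bases 222 (ILMN_2617384, no position given) and 294 (ILMN_2688439, 77866904 to 77866953). The Flot1 probes start at base 298 (ILMN_2702464, no position given) and at base 1613 (ILMN_1241618, chromosome 17, 35969651 to 35969700).
Flot2 ILMN_3152380, last 30 bases: tttGGATGTTGCACTACCCCACTGCCTGTC
Flot2 ILMN_1227357, first 30 bases: GGATGTTGCACTACCCCACTGCCTGTCccc
Flot2 ILMN_2688439, whole: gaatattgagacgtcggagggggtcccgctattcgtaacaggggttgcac
Flot1 ILMN_2702464, whole: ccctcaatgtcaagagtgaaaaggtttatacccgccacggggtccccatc
Flot1 ILMN_1241618, first 30 bases: ccagtgccctgcaccaagattgattatctt

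Along chromosome 2 the 5 Gnas probes follow the order of the promoters. ILMN_2638324 (174110166 to 174110215) lies in a transcript that begins at the Nesp55 exon. The annotation gives it 2 blocks, of 9 and 41 bases, which follow each other without a gap, so that its positions show no exon junction. ILMN_3056973 (174126132 to 174126181) lies downstream of it, in another alternative transcript. ILMN_3075080 (174153415 to 174153630) joins 28 and 22 bases of a noncoding transcript record. ILMN_1223437 (174155806 to 174155855) lies in the first exon of the Gs alpha form, and ILMN_2632206 in an exon that the coding forms share. Capitals mark the second block of a probe that the annotation gives in 2 blocks.
Gnas ILMN_2638324, whole: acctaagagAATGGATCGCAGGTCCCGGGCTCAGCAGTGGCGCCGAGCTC
Gnas ILMN_3075080, last 30 bases: actcacatAGCTAACCCAAGGAGCACCTAA
Gnas ILMN_1223437, whole: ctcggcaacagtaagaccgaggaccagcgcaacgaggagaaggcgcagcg

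Detection differed among probes of the same gene. Cav1, both Flot1 probes, the overlapping pair of Flot2 and 3 Gnas probes (ILMN_3075080, ILMN_1223437, ILMN_2632206) were detected on all 12 arrays. Flot2 ILMN_2617384 was detected on 6 of 6 hippocampal and 0 of 6 cortical arrays, and Flot2 ILMN_2688439 on 1 array. Cav2 ILMN_2639018 was detected on 3 hippocampal and 5 cortical arrays, while Cav2 ILMN_2689037 was not detected on any. The Nesp55 probe ILMN_2638324 and Gnas ILMN_3056973 were detected on 0 of 12 arrays, with detection p-values of 0.149 to 0.911 and 0.236 to 0.757. A probe entered a comparison within a tissue when it was detected on at least 3 of the 6 arrays, which 10 member probes met among hippocampal and 9 among cortical arrays. The comparison of tissues took probes that met this in either tissue, which left 10. The other 4 probes (Cav2 ILMN_2689037, Flot2 ILMN_2688439, Gnas ILMN_2638324 and ILMN_3056973) have levels near background on all or all but 1 of the arrays and were not compared.

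Levels below are log2 signals of a probe relative to the mean of all probes on the same array, after scaling all arrays to the same SD, so that 0 is the array mean and 1 unit is, on average over the arrays, a doubling. Levels within a tissue were scaled on its 6 arrays, and levels compared between tissues on all 12, which is why the same array has slightly different values on each scale. Probes differ in affinity, so levels of different probes are not compared.

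**Figure D1:**
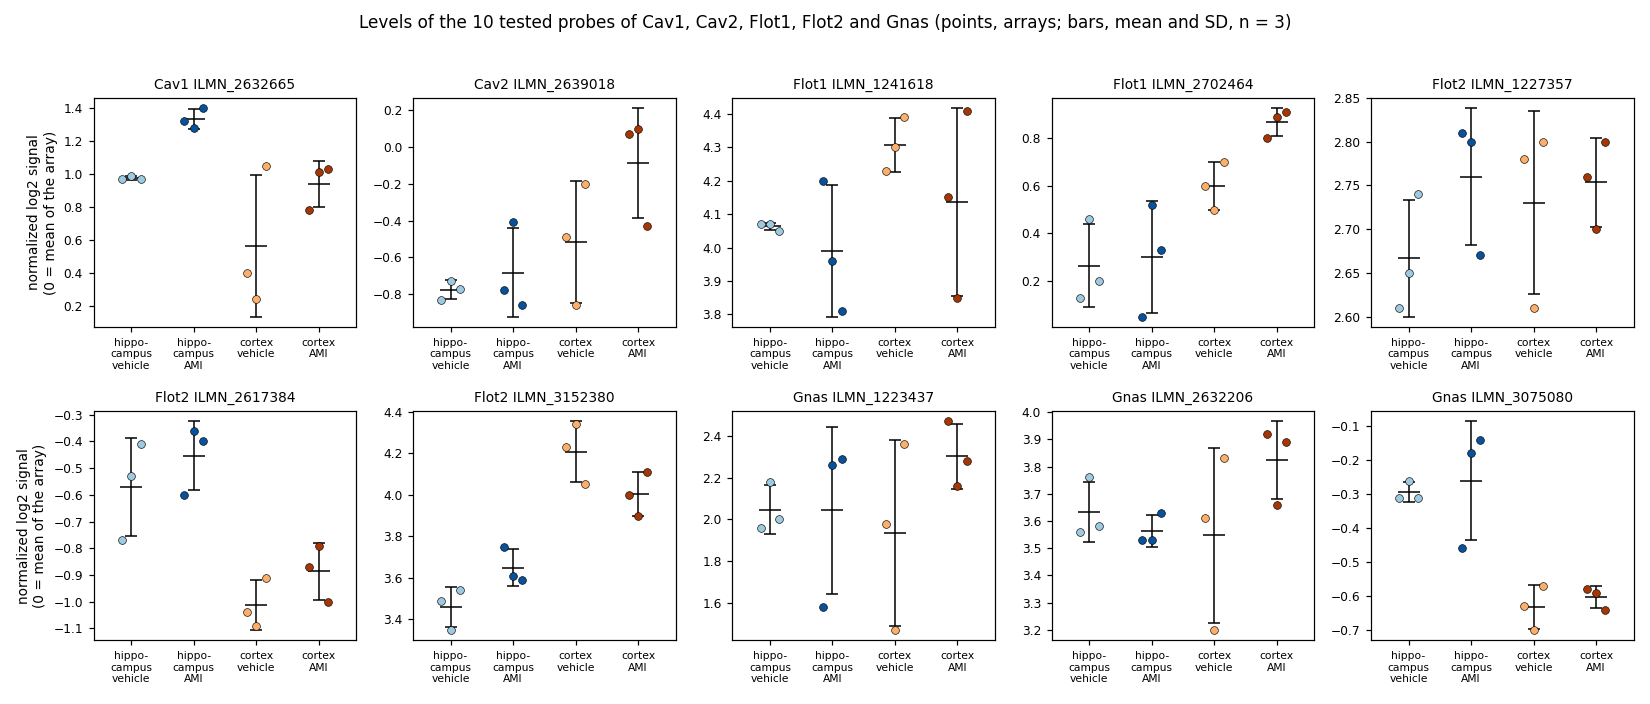
Normalized log2 signals of the 10 tested member probes, scaled on all 12 arrays, with 1 point per array, the group mean and the SD (n = 3). The vertical axis differs between panels. Cav1 in the hippocampus was 0.97 to 0.99 on vehicle arrays and 1.28 to 1.40 on AMI arrays, and the cortical vehicle arrays of Cav1 lay between 0.24 and 1.05.

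Cav1, the structural protein of caveolae, was higher in the hippocampus of AMI-treated mice than of vehicle-treated mice. On the hippocampal scale its level was 1.02, 1.04 and 1.03 on the vehicle arrays and 1.40, 1.35 and 1.47 on the AMI arrays. Every AMI array thus lay above every vehicle array, and the vehicle arrays differed little. Group means were 1.03 ± 0.01 and 1.41 ± 0.06 (SD, n = 3), a log2 difference of 0.38 (SE 0.09) or 1.30-fold on this scale. Cav2 did not share this separation. Cav2 ILMN_2639018 was -0.88, -0.77 and -0.81 on vehicle arrays and -0.82, -0.43 and -0.91 on AMI arrays, with a single AMI array above the rest and a log2 difference of 0.10 (SE 0.13).

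The flotillin values in the hippocampus depended on the probe. Flot2 ILMN_3152380 was 3.69, 3.53 and 3.74 on vehicle arrays and 3.97, 3.81 and 3.80 on AMI arrays, which did not overlap, and differed by 0.20 (SE 0.10) or 1.15-fold. The probe that shares 27 bases with it, ILMN_1227357, was 2.76, 2.80 and 2.90 on vehicle arrays and 2.97, 2.96 and 2.82 on AMI arrays, which overlapped, with a difference of 0.10 (SE 0.10). Near the start of the transcript, Flot2 ILMN_2617384 differed by 0.13 (SE 0.13) with overlapping arrays. Between same-numbered arrays, AMI minus vehicle was 0.38, 0.30 and 0.45 for Cav1 and 0.28, 0.28 and 0.06 for Flot2 ILMN_3152380. It was 0.18, 0.18 and 0.02 for Flot2 ILMN_2617384 and 0.20, 0.16 and -0.07 for Flot2 ILMN_1227357. All 3 detected Flot2 probes thus had their higher mean after AMI, by 0.10 to 0.20. Flot1, the partner of Flot2 in its oligomers, differed by -0.07 (SE 0.12) at ILMN_1241618 and by 0.04 (SE 0.15) at ILMN_2702464.

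Gnas showed no separation by treatment in the hippocampus. The Gs alpha first-exon probe ILMN_1223437 had means of 2.16 ± 0.43 after AMI and 2.16 ± 0.13 after vehicle (SD, n = 3). Its spread after AMI came from AMI array 1, at 1.67, against 2.39 and 2.42 on the other AMI arrays. The shared-exon probe ILMN_2632206 differed by -0.07 (SE 0.10) and the noncoding-form probe ILMN_3075080 by 0.04 (SE 0.11).

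Of the 10 member probes compared in the hippocampus, 2 (Cav1 and Flot2 ILMN_3152380) had AMI and vehicle arrays without overlap, and 7.89% of all 13163 probes did. As this contrast chose the genes, nothing is read from that count. It rose to 6 of 9 without AMI array 1, when 28.5% of all probes were apart, and to 4 of 10 without AMI array 3, when 13.2% were. With median centring, when 4.13% of all probes were apart, Cav1 stayed apart with a difference of 0.43. The arrays of Flot2 ILMN_3152380 then overlapped although its difference was larger, at 0.33, and that of ILMN_1227357 was 0.20.

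**Figure D2:**
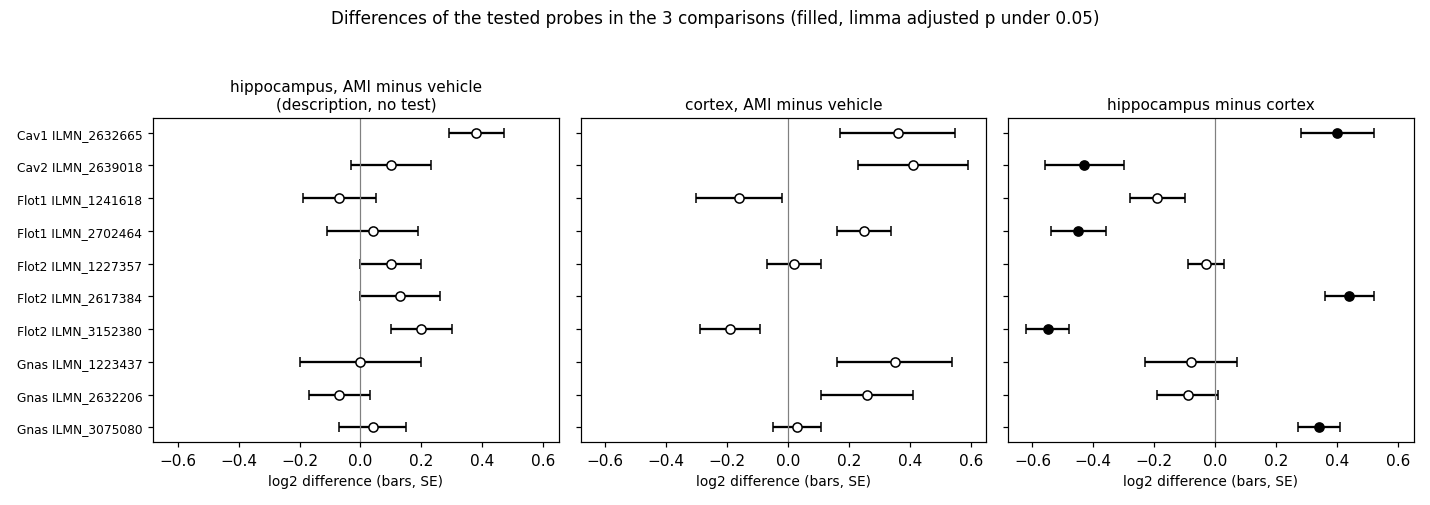
Log2 differences (points) with SE (bars) of the tested member probes. The panels show AMI minus vehicle in the hippocampus (10 probes, not tested), AMI minus vehicle in the cortex (9 probes) and hippocampus minus cortex (10 probes). Filled points passed limma's adjusted p of 0.05, which 6 probes did between tissues and 0 did in the cortex.

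In the cortex none of the 9 member probes passed the test for a difference between AMI and vehicle. With limma the count at an adjusted p under 0.05 was 0, as it was for all 12944 probes tested, and with the methods' t-test it was also 0. At an unadjusted p under 0.05, 1 of 9 member probes was counted, beside 6.28% of all probes. This count was 6 with array weights, beside 22.8% of all probes, and 4 with the replicate number as a block, beside 8.69%. Arrays of AMI and vehicle did not overlap for the same probe, 1 of 9, beside 12.2% of all probes. That probe was Flot1 ILMN_2702464.

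Cav1 in the cortex was 0.38, 0.22 and 0.99 on vehicle arrays and 0.74, 0.96 and 0.97 on AMI arrays. Vehicle array 3 was as high as the AMI arrays, so that the groups overlapped. The log2 difference was 0.36 (95% confidence interval -0.07 to 0.78, limma adjusted p = 0.791), close in size to the hippocampal 0.38 but with more spread. Cav2 ILMN_2639018 was -0.46, -0.81 and -0.19 on vehicle arrays and 0.06, 0.09 and -0.40 on AMI arrays. Its difference was 0.41 (interval -0.01 to 0.83, limma adjusted p = 0.781), and the vehicle array 3 was again the highest of its group.

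Flot1 ILMN_2702464 was 0.57, 0.47 and 0.66 on cortical vehicle arrays and 0.75, 0.84 and 0.86 on AMI arrays, without overlap. The difference was 0.25 (interval 0.04 to 0.46), with an unadjusted limma p of 0.0234 and an adjusted p of 0.756. The Flot1 probe nearer the end of the transcript, ILMN_1241618, had a difference of -0.16 (interval -0.47 to 0.15, limma adjusted p = 0.891). Flot2 ILMN_3152380, which was higher after AMI in the hippocampus, was 3.99, 4.10 and 3.82 on cortical vehicle arrays and 3.77, 3.68 and 3.88 on AMI arrays. Its difference was -0.19 (interval -0.43 to 0.05, limma adjusted p = 0.798), and for the overlapping probe ILMN_1227357 it was 0.02 (interval -0.19 to 0.23). Whether the AMI difference itself differed between the tissues was not tested, since the hippocampal contrast chose the genes.

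Among the Gnas probes in the cortex, ILMN_1223437 was 1.87, 1.38 and 2.23 on vehicle arrays and 2.33, 2.04 and 2.15 on AMI arrays. Vehicle array 2 was the lowest, and vehicle array 3 lay among the AMI arrays. The difference was 0.35 (interval -0.09 to 0.79, limma adjusted p = 0.801). The shared-exon probe ILMN_2632206 differed by 0.26 (interval -0.09 to 0.61) and ILMN_3075080 by 0.03 (interval -0.16 to 0.22).

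Cortical vehicle array 3 had values like those of the AMI arrays for Cav1, Cav2 and both of these Gnas probes. Without it, 6 of 9 member probes had arrays apart, beside 33.6% of all probes, and 6 of 9 had an unadjusted limma p under 0.05, beside 15.3% of all probes. The Cav1 difference was then 0.59 (limma adjusted p = 0.122) and no member passed after adjustment. Without vehicle array 2, the lowest for these probes, the differences were smaller, at 0.20 for Cav1, 0.24 for Cav2, 0.13 for Gnas ILMN_1223437 and 0.10 for Gnas ILMN_2632206, none of which passed limma's test. Without AMI array 3, 4 of 9 were apart, beside 24.5% of all probes, and 2 of 9 had an unadjusted limma p under 0.05, beside 6.52%. Without AMI array 2, 2 of 9 were apart, beside 21.5%. The unadjusted count was 0 without AMI array 2, vehicle array 1 or vehicle array 2, beside 5.06%, 4.80% and 2.87% of all probes.

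Between the tissues member probes of the same gene or of neighbouring genes differed in both directions. Of the 10 member probes tested over all 12 arrays, 6 passed limma's adjusted p of 0.05, beside 43.1% of all 13677 probes. For 3 of them no hippocampal array overlapped a cortical array, beside 22.3% of all probes. Higher in the hippocampus were Cav1, Flot2 ILMN_2617384 and Gnas ILMN_3075080, and lower were Cav2, Flot1 ILMN_2702464 and Flot2 ILMN_3152380. Flot2 ILMN_2617384 is among the 6 and among the 3 but met the filter only through the tissue in which it is high. The hippocampal and cortical signals were extracted separately with different programs, so that tissue and processing run cannot be told apart. With median centring the median difference of all probes moved from 0.03 to 0.19 and the count of member probes that passed fell to 4. With the stricter detection filter, which tested 7 member probes, 3 passed.

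The neighbouring genes Cav1 and Cav2 went in opposite directions between the tissues. Cav1 was 1.15 ± 0.20 in the hippocampus and 0.75 ± 0.35 in the cortex (SD, n = 6), a log2 difference of 0.40 (SE 0.12, interval 0.15 to 0.65, limma adjusted p = 0.0132). The difference was 0.41 between vehicle arrays and 0.39 between AMI arrays, and it did not pass with the vehicle arrays alone (limma adjusted p = 0.153). Without the high cortical vehicle array 3 it was 0.53 (limma adjusted p = 9.64e-05). Cav2 ILMN_2639018 was -0.73 ± 0.16 in the hippocampus and -0.30 ± 0.37 in the cortex, a difference of -0.43 (SE 0.13, interval -0.70 to -0.15, limma adjusted p = 0.0155). It was -0.26 among vehicle arrays and -0.59 among AMI arrays. Of the 6 hippocampal arrays only 3 had this probe above background, so that its lower level there is near the detection limit. With the methods' t-test neither caveolin passed, at adjusted p-values of 0.0766 for Cav1 and 0.0607 for Cav2.

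The Flot2 probes gave 3 different answers on the tissues. ILMN_3152380 was 3.35 to 3.75 on hippocampal arrays and 3.90 to 4.34 on cortical arrays, which did not overlap, with a difference of -0.55 (SE 0.07, interval -0.71 to -0.39, limma adjusted p = 6.72e-05). The probe with which it shares 27 bases, ILMN_1227357, was 2.61 to 2.81 in the hippocampus and 2.61 to 2.80 in the cortex, with a difference of -0.03 (SE 0.06, interval -0.16 to 0.10, limma adjusted p = 0.749). Flot2 ILMN_2617384, near the start of the transcript, was -0.77 to -0.36 in the hippocampus and -1.09 to -0.79 in the cortex, again without overlap. It was above background on no cortical array, and set against the lowest detected signals there it was at least 1.17-fold higher in the hippocampus. It met the detection filter only through the hippocampus, where it is high, so that its difference is given as a description. With median centring the difference of ILMN_3152380 was -0.04 (limma adjusted p = 0.862) and that of ILMN_1227357 was 0.36 (limma adjusted p = 0.0517). The sign of the latter thus turned with the scaling and that of the former did not, and a gap between them was present under both. The difference of ILMN_3152380 was -0.75 among vehicle arrays and -0.35 among AMI arrays.

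The gap can also be read without any scaling between arrays, as the log2 ratio of both unnormalized signals on 1 array. Such a ratio still carries the spread of that array's log2 signals, which was 1.51 to 1.85 on hippocampal and 1.42 to 1.68 on cortical arrays. For Flot2, ILMN_3152380 over ILMN_1227357, the ratio was 0.76 to 1.03 on hippocampal arrays and 1.10 to 1.63 on cortical arrays, with means of 0.88 ± 0.09 and 1.29 ± 0.20 (SD, n = 6). The tissues did not overlap, and neither did the gap on the levels scaled over all 12 arrays. Within the hippocampus the unnormalized ratio was 0.76 to 0.85 after vehicle and 0.89 to 1.03 after AMI, which did not overlap. On the scaled levels the groups overlapped. There the gap of vehicle array 1 (3.69 and 2.76) was wider than that of AMI array 2 (3.81 and 2.96). In the cortex the unnormalized ratio was 1.10 to 1.63 after vehicle and 1.17 to 1.26 after AMI, which overlapped. These ratios were looked at after the probe values were seen and carry no test. Between the tissues they show an unequal change of the probes and not which of them changed. Nothing is read from them by treatment, as the hippocampal contrast chose Flot2.

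**Figure D3:**
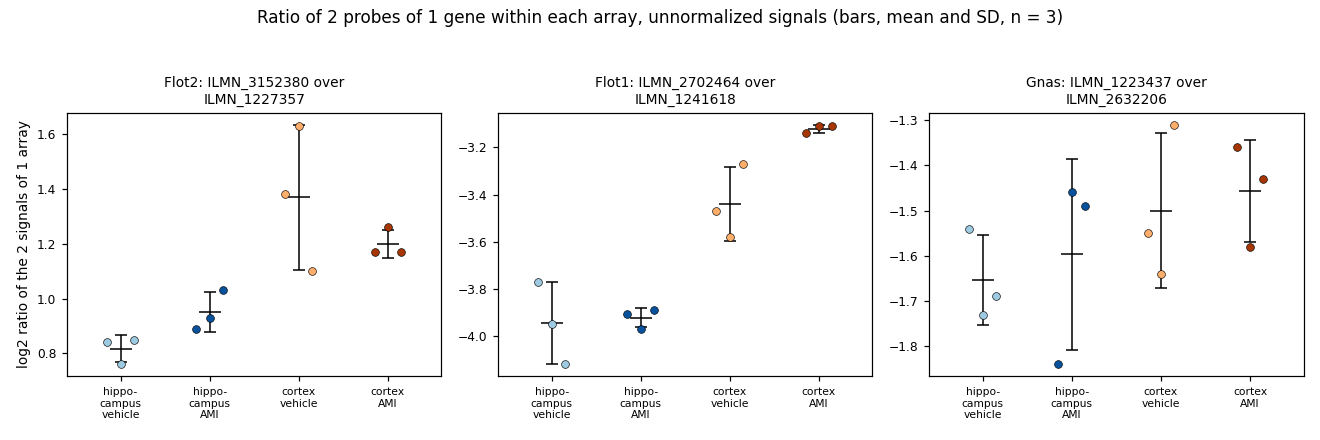
Log2 ratio of the unnormalized signals of 2 probes of 1 gene on each array, with 1 point per array, the group mean and the SD (n = 3). The Flot2 ratio lay at 0.76 to 1.03 on hippocampal and 1.10 to 1.63 on cortical arrays, and the Flot1 ratio at -4.12 to -3.77 and -3.58 to -3.11, while the Gnas ratios overlapped between tissues. Unnormalized ratios carry each array's spread of log2 signals. On the scaled levels the Flot1 gap overlapped between tissues.

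For Flot1 the gap between the probes depended on the scaling. ILMN_2702464 was 0.05 to 0.52 on hippocampal arrays and 0.50 to 0.91 on cortical arrays, which overlapped slightly, with a difference of -0.45 (SE 0.09, interval -0.64 to -0.26, limma adjusted p = 0.00129). ILMN_1241618 differed by -0.19 (SE 0.09, interval -0.40 to 0.01, limma adjusted p = 0.117). The unnormalized within-array ratio of ILMN_2702464 over ILMN_1241618 was -3.94 ± 0.11 in the hippocampus and -3.28 ± 0.20 in the cortex (SD, n = 6), without overlap. On the levels scaled over all 12 arrays the tissues overlapped. There the gap of hippocampus AMI array 2 (0.52 and 3.96) was narrower than that of cortex vehicle array 2 (0.50 and 4.30). In the cortex the unnormalized ratio was -3.58 to -3.27 after vehicle and -3.14 to -3.11 after AMI, without overlap. It contains ILMN_2702464, whose own cortical arrays were already apart, as were those of 12.2% of all probes, so it is no separate result. The Flot1 ratio too was looked at after the probe values were seen and carries no test. The tissue difference of ILMN_2702464 did not pass with median centring (-0.30, limma adjusted p = 0.0576) or with the vehicle arrays alone (-0.33, limma adjusted p = 0.0732).

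Among the tested Gnas probes only ILMN_3075080 passed between the tissues. The noncoding-form probe ILMN_3075080 was -0.46 to -0.14 on hippocampal arrays and -0.70 to -0.57 on cortical arrays, without overlap, and the difference of 0.34 (SE 0.07, interval 0.20 to 0.48, limma adjusted p = 0.00128) was the same among vehicle and among AMI arrays. This probe was dim, at unnormalized signals of 78.6 to 143.8 in the hippocampus and 86.6 to 112.0 in the cortex, and did not meet the stricter detection filter. The Gs alpha first-exon probe ILMN_1223437 differed by -0.08 (interval -0.41 to 0.26, limma adjusted p = 0.726) and the shared-exon probe ILMN_2632206 by -0.09 (interval -0.30 to 0.12, limma adjusted p = 0.501). The within-array ratio of ILMN_1223437 over ILMN_2632206 was -1.84 to -1.46 in the hippocampus and -1.64 to -1.31 in the cortex, with overlap.

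Endothelial cells hold most of the caveolae of the brain, so Cav1 was set beside 14 tested endothelial marker genes of 18 listed. In the hippocampus 11 of the 14 had their higher mean after AMI, and the median difference was 0.11 beside 0.01 over all probes. Arrays were apart for 1 of the 14 (Flt1, a receptor for vascular endothelial growth factor, at 0.12), beside 7.89% of all probes. The mean level of the 14 was 1.18 to 1.45 on vehicle arrays and 1.36 to 1.61 on AMI arrays, which overlapped. The largest differences in the list were those of Ly6a at 0.39 and of the glucose transporter gene Slc2a1 at 0.33, with overlapping arrays. In the cortex the mean level was 1.18 to 1.68 after vehicle and 1.41 to 1.49 after AMI, with vehicle array 3 the highest, as it was for Cav1. Between the tissues the endothelial list had a median of -0.18, beside 0.03 over all probes, whereas Cav1 was higher in the hippocampus. At limma's adjusted p of 0.05, 0 of the 14 were higher and 3 lower there (Itm2a, Tek and Flt1), beside 43.1% of all probes called. The part of endothelial RNA in the Cav1 differences was not tested.

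**Figure D4:**
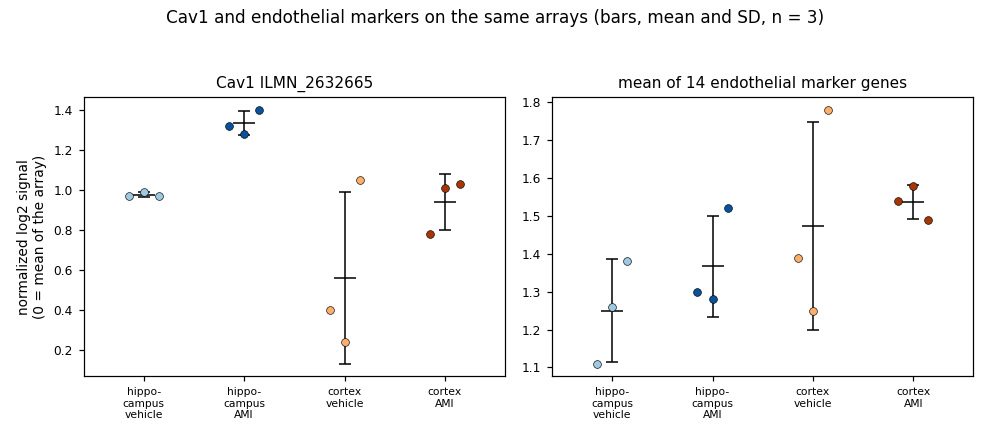
Cav1 (left) and the mean of 14 endothelial marker genes (right), as normalized log2 signals scaled on all 12 arrays, with 1 point per array, the group mean and the SD (n = 3). Cav1 was higher in the hippocampus than in the cortex by 0.40, while the endothelial genes lay at 1.11 to 1.52 in the hippocampus and 1.25 to 1.78 in the cortex.

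Markers of other cell types were also set beside the hippocampal values, without a test. Choroid plexus markers had their lower mean after AMI in 6 of 6 genes, with a median difference of -0.93, and 1 of 6 had arrays apart, beside 7.89% of all probes. The mean level of these markers was 1.19, 1.40 and 3.90 on vehicle arrays and 0.95, 1.17 and 1.31 on AMI arrays, with vehicle array 3 standing far above the rest. The meningeal and fibroblast markers, lower in 4 of 5 genes (median -0.49), had the same array apart, at 2.63 against 1.46 and 1.49 on the other vehicle arrays. Oligodendrocyte markers had their lower mean in 8 of 8, with a median of -0.49 and 2 of 8 apart, beside the same 7.89%. The mean levels of the oligodendrocyte markers overlapped, at 3.78 to 4.30 after vehicle and 3.43 to 3.82 after AMI. Pericyte and smooth muscle markers were lower in 4 of 5 (median -0.07). Without vehicle array 3 the hippocampal Cav1 difference was 0.37. Astrocyte, microglial and neuronal markers had medians of 0.06, 0.08 and -0.01. The part of these cell types in the member values was not tested.

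The wider list of caveolar and raft genes held 29 genes, of which 26 were on the array and 19 were tested in each comparison. In the hippocampus 3 of the 19 had AMI and vehicle arrays apart, beside 7.89% of all probes, and all 3 were higher after AMI. Cav1 and Flot2 were chosen by this contrast, and the other was Erlin1, a protein of raft-like domains of the endoplasmic reticulum, at 0.27 (SE 0.12). The median of the list was -0.06, beside 0.01 over all probes, and the partners of caveolin in caveolae, Sdpr and Prkcdbp, were at -0.09 (SE 0.16) and -0.10 (SE 0.13). The myelin raft genes Mal and Pllp were at -0.22 (SE 0.25) and -0.31 (SE 0.19), beside the lower oligodendrocyte markers. In the cortex 0 of 19 passed limma's adjusted p, with a median of 0.02.

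Between the tissues 3 of the 19 raft genes were higher in the hippocampus and 3 were lower at limma's adjusted p of 0.05, 6 of 19 beside 43.1% of all probes. Beside Cav1, Prkcdbp was higher by 0.28 (SE 0.09, limma adjusted p = 0.0199) and Mal by 0.83 (SE 0.16, limma adjusted p = 0.00137). Beside Cav2 and Flot2, the lower gene was Erlin2, at -0.27 (SE 0.10, limma adjusted p = 0.0390). Mal, a raft protein of myelin, was higher although the oligodendrocyte list had a median of -0.36, with 0 of 8 genes higher and 4 lower, beside the same 43.1%. Flot2 here stands for its brightest probe, ILMN_3152380.

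Gs alpha acts among other G protein alpha subunits and on adenylyl cyclases. Of the alpha subunits, 0 of 9 passed in the cortex after AMI, and in the hippocampus 0 of 10 had arrays apart, beside 7.89% of all probes. Between tissues 11 were tested and 5 passed, beside 43.1% of all probes. Gnaq and Gna11, which encode subunits that activate phospholipase C, were higher in the hippocampus by 0.56 (limma adjusted p = 0.000391) and 0.35 (limma adjusted p = 0.0142). Gnao1, an inhibitory-class subunit abundant in neurons, was lower, at -0.71 (limma adjusted p = 2.70e-05). The other 2 calls, Gna14 at 0.70 and Gnat1 at -0.34, met the detection filter only in the tissue where they are higher and are given as a description.

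Of the adenylyl cyclases, the effectors of Gs alpha, 7 were tested. In the cortex 0 passed, and in the hippocampus 0 had arrays apart, beside 7.89% of all probes. Between tissues Adcy9 was higher in the hippocampus by 1.32 (limma adjusted p = 1.47e-07), Adcy6 by 0.51 (limma adjusted p = 0.000640) and Adcy1 by 0.34 (limma adjusted p = 0.0254). Adcy2 was lower, at -0.31 (limma adjusted p = 0.0169). These were 4 of 7, beside 43.1% of all probes.

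The genes whose values went most closely with each member were found by Pearson's r of the deviations from the 4 group means over the 12 arrays, with the brightest probe of each member. They share the arrays and their quality, and the values are a description. For Cav1 these were Nedd4 (r = 0.932), Pros1 (0.925), Notch1 (0.923), Riok3 (0.920) and Jak2 (0.916). For Cav2 they were Prei4 (0.965), Senp6 (0.959), Vstm2a (0.955), Pclo (0.951) and Oxr1 (0.950). For Flot1 they were LOC100047834 (0.957), Guk1 (0.952), Bscl2 (0.949), Dnajc10 (0.944) and Armcx2 (0.931). Flot2 had Lin7b (0.934), Mrpl28 (0.919), Serbp1 (0.912) and Gucy1a2 (0.905), and Gnas had Smpd1 (0.970), Cdc16 (0.966), Pex14 (0.965), Tspan3 (0.955) and Gde1 (0.947).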

How the data were processed

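Total RNA of hippocampus and cortex was hybridised to Illumina Mouse Ref-8 arrays. The authors deposited, per tissue, a table of mean bead intensity on a linear scale without normalization or background subtraction. The deposited tables also give the detection p-value of every probe on every array. The submitters' processing notes name BeadStudio 3.4 for the hippocampus and GenomeStudio 1.1.1 for the cortex. Log2 signals were centred on each array's mean, divided by its SD (z normalization, as in the study's methods) and rescaled by the average SD of the compared arrays. Probes detected at 0.05 or less on at least 3 of 6 arrays were fitted with limma 3.58.1 in R 4.3.3 (lmFit, eBayes), with Benjamini-Hochberg adjustment over all of them and a threshold of 0.05. The fit was tested on simulated data. Figures were drawn with matplotlib.

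Members, marker lists and tests were chosen with earlier results of these data known. All 14 member probes carried the same symbol in RefSeq by accession. Named genes were all member probes, genes of the raft, G protein alpha and adenylyl cyclase lists, up to 3 of each other list by the size of their difference, and the 5 genes most alike each member, and a list gene was read from its brightest probe. Same-numbered hippocampal AMI and vehicle arrays had r of 0.61, 0.30 and 0.29, and differently numbered ones -0.47 to 0.28. Only number 1 thus stood clear, and whether the numbers pair these arrays was not settled. The array number limits the precision. Alternatives were other normalizations, background correction, detection filters, variance models, array weights, a replicate block, other sets of arrays and the methods' t-test (unpaired, equal variances). Some items of these lists and sequences are not reported here.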

Additional observations from a re-analysis of the deposited data

How the results depend on the processing

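The count of hippocampal member probes with AMI and vehicle arrays apart (2) was 1 with median centring and ranged from 2 to 6 when each array was left out in turn. In the cortex the count of member probes that passed limma was 0 under every alternative run. Between the tissues the count (6) was 3 with detection at 0.01 or less on every array and 3 with the vehicle arrays alone, both with fewer probes tested, and ranged from 6 to 7 when each array was left out. With the replicate number as a replicate block it was 6, fixed or random, and in the cortex 0. A block cannot change the hippocampal count, which rests on overlap alone. The numbers gave no clear pairing of the cortical arrays (r of -0.06, 0.33 and 0.33, beside -0.42 to 0.27 for different numbers) nor of hippocampus with cortex. Without an adjusted p under 0.05 in either fit, these tissue differences changed sign. With median centring, Gnas ILMN_1223437 was 0.26, Flot2 ILMN_1227357 0.36, Flot1 ILMN_1241618 0.35 and Gnas ILMN_2632206 0.41. Gnas ILMN_2632206 was 0.02 with quantile normalization and 0.02 with neqc (offset 16). With array weights Gnas ILMN_1223437 was 0.05, and with the vehicle arrays alone it was 0.11 and Gnas ILMN_2632206 0.08. Gnas ILMN_1223437 ranged from -0.19 to 0.04 when each array was left out, above 0 without hippocampus AMI array 1 (0.04) or cortex vehicle array 3 (0.03), and Flot2 ILMN_1227357 was 0.01 with the AMI arrays alone. In the cortex Flot2 ILMN_1227357 ranged from -0.04, without vehicle array 2, to 0.05. Flot1 ILMN_1241618 passed limma's test between tissues with array weights (-0.24), without hippocampus AMI array 1 (-0.25) and without cortex AMI array 2 (-0.26). The cause was not tested. Signals near background limit the fold changes of Cav2, Flot2 ILMN_2617384 and Gnas ILMN_3075080, since background was not subtracted. With neqc their tissue differences were -0.84, 0.83 and 0.60, that of Flot1 ILMN_2702464 was -0.71, and the cortical difference of Cav2 was 0.69.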
